A study of Mus musculus with 2 samples.

Results

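The paralogous microRNA clusters that encode miR-23, miR-27 and miR-24 were followed in the developing lung of the mouse, in B6NCrl embryos aged 15.5 days. They comprise 6 genes, read from 6 of the 1973 rows of microRNA genes in the deposited tables. Of these, 3 are in the Mir23b cluster (Mir23b, Mir27b and Mir24-1) and 3 in the Mir23a cluster (Mir23a, Mir27a and Mir24-2). The genes were chosen by name, and the reads on the annotated strand of each were taken. Mir24-1 was read on the strand opposite Mir3074-1, the row that covers its place. Small RNA with inserts below 30 nt was sequenced as 2 libraries of 1 group, healthy embryonic lung of mixed sex, and no other condition was measured. Replicate 1 pooled the lungs of 78 embryos and held 5354530 counts on annotated strands, and replicate 2 pooled 62 embryos and held 6489390. Both pools carry the same donor label. One count equalled 0.187 CPM (counts per 1000000 gene counts) in replicate 1 and 0.154 CPM in replicate 2. Reads mapped to several places, 31.4% and 30.6% of all reads, appear on a separate summary line, and no gene was taken to hold them.

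MicroRNAs are cut from hairpin precursors by Drosha and Dicer, and the product loaded onto an Argonaute protein finds its target mRNAs mainly through the seed, bases 2 to 8. Each of the clusters is transcribed as a common primary transcript that holds a miR-23, a miR-27 and a miR-24 hairpin in this order. In blood vessels miR-23 and miR-27 are known to promote sprouting by acting on inhibitors of angiogenesis such as Sprouty2 and Semaphorin 6A, and the Mir23a cluster is also known for its part in blood cell lineages. miR-27 is known to act on the adipogenic receptor PPARγ, and miR-24 on the apoptosis gene Bim.

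The mature products are shown first because the 3p products of the miR-27 and miR-24 twins differ so little that the sequences bear on how reads can be counted. The lines run 5′ to 3′ with the seed in capitals, from RefSeq on GRCm38.p6, and all 6 hairpins had an entry. The mature entries used here held none for miR-23b-3p, so it is not shown.
miR-23a-3p (Mir23a): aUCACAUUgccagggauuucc
miR-27b-3p (Mir27b): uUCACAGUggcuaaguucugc
miR-27a-3p (Mir27a): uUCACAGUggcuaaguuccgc
miR-24-3p (Mir24-1 and Mir24-2): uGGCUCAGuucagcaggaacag
miR-24-1-5p (Mir24-1): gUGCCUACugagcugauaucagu
miR-24-2-5p (Mir24-2): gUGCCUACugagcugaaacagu
Not listed are the 5p arms of miR-23 and miR-27, whose seeds differ between the twins. Compared base by base from the 5′ end with no shift allowed, miR-23b-5p and miR-23a-5p differed at 12 of 21 bases. In the same way miR-27b-5p and miR-27a-5p differed at 8 of 22. The miR-23 seeds, GGUUCCU in miR-23b-5p and GGGUUCC in miR-23a-5p, share the run GGUUCC at shifted positions. The 12 differences therefore include that offset. The listed products fall into groups by seed. miR-27b-3p and miR-27a-3p share the seed UCACAGU, and miR-23a-3p has UCACAUU, which differs from it by the single substitution U7G (miR-23a-3p base, position from the 5′ end, miR-27a-3p base). miR-24-3p has the unrelated seed GGCUCAG. Over their 21 bases miR-27b-3p and miR-27a-3p differ only by U19C, written from miR-27b-3p to miR-27a-3p. miR-24-3p is the same 22 bases in both clusters, and the 5p arms of the miR-24 hairpins share their first 16 bases and differ first by U17A, from miR-24-1-5p to miR-24-2-5p.

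The hairpins of each twin pair are shown with their longest common run in capitals. They are given as RNA on the strand of the microRNA.
Mir23b: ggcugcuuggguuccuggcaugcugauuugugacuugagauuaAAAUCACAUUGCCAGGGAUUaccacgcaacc
Mir23a: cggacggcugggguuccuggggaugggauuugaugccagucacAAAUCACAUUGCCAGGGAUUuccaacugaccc
Mir27b: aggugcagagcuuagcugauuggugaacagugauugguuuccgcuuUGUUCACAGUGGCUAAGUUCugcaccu
Mir27a: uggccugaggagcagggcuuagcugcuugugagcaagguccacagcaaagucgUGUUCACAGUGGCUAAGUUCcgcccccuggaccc
Mir24-1: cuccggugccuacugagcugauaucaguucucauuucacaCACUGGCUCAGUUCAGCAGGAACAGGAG
Mir24-2: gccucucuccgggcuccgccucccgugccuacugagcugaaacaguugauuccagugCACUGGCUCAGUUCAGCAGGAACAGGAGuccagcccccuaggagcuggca
The common run was 20 bases in the Mir23 pair, 20 bases in the Mir27 pair and 28 bases in the Mir24 pair. In the Mir24 pair it holds the whole of miR-24-3p, so a read of that product has an exact place in each cluster. Among 1005 RefSeq mouse hairpins, searched on both strands, the first 16 bases of miR-23a-3p, miR-27a-3p and miR-27b-3p each lay at 1 other locus, and the first 19 bases at none. For miR-24-3p no length up to its full 22 bases was unique. The first 16 bases of the 5p arms of miR-23 and miR-27 lay at no other locus. The arms are not separated in these tables, since a gene there is a whole precursor, and a genome search for further matches was not made.

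The clusters lie on different chromosomes with their hairpins in the same order. The Mir23b cluster spans chr13:63300484-63301275 on the plus strand (mm10), 792 bp, inside the protein-coding gene 2010111I01Rik, named Aopep in RefSeq. Mir23b (63300484 to 63300557) is intronic there. Mir27b (63300712 to 63300784) lies within an exon of 1 transcript of that gene annotated for nonsense-mediated decay, and Mir24-1 (63301208 to 63301275) within or across exons of its noncoding or decay-targeted transcripts. On the other strand the whole cluster is in an intron of Fancc, and Mir3074-1 (63301199 to 63301283) lies opposite Mir24-1. The Mir23a cluster spans chr8:84208518-84208921 on the plus strand, 404 bp, with Mir23a at 84208518 to 84208592, Mir27a at 84208672 to 84208758 and Mir24-2 at 84208815 to 84208921. No host gene is annotated there, Mir3074-2 lies opposite Mir24-2 on the minus strand, and the last 2 bp of Mir24-2 overlap the start of the long noncoding RNA Gm26532. Gaps between neighbouring hairpins were 154 and 423 bp in the Mir23b cluster and 79 and 56 bp in the Mir23a cluster.

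**Figure D1:**
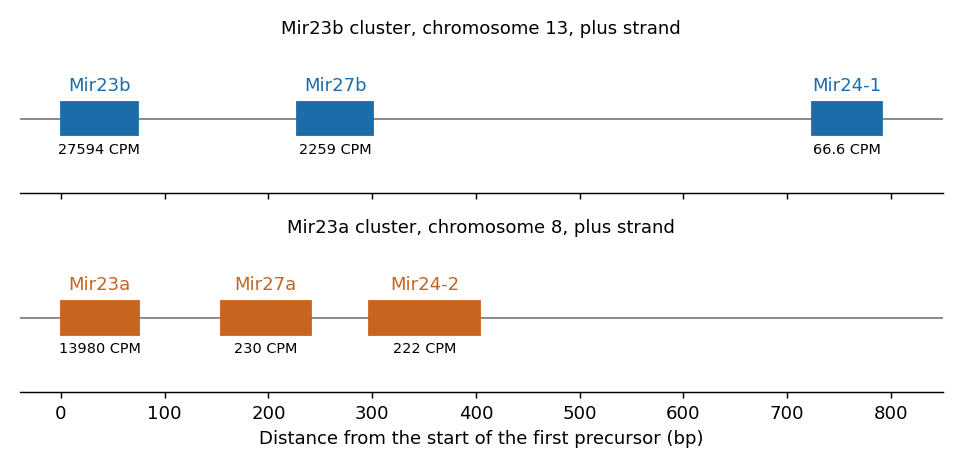
Positions of the 3 precursors of the Mir23b cluster (top) and of the Mir23a cluster (bottom), drawn to scale as boxes along the distance in bp from the start of the first precursor, with the mean CPM of 2 libraries under each box. The order of the hairpins is the same, the Mir23b cluster is longer (792 bp, against 404 bp), and the miR-23 precursor has the most counts in each.

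Together the 6 genes took 4.49% of all gene counts in replicate 1 and 4.38% in replicate 2, a mean of 4.44% ± 0.071 (SD, n = 2). The Mir23b cluster took 3.01% and 2.98% (2.99% ± 0.0228), and the Mir23a cluster 1.48% and 1.41% (1.44% ± 0.0482). The Mir23b cluster thus held 2.07-fold more counts than the Mir23a cluster, with a log2 ratio of 1.03 in replicate 1 and 1.08 in replicate 2 (1.05 ± 0.0372, SD, n = 2). All 6 genes reached 10 counts in both libraries, where 18.1% of all genes in the table did so on their annotated strand, and all 6 also reached 100. Mir24-1 was read on an opposite strand, where 0.81% of all rows reached 10 counts in both libraries. With reads mapped to several places added to the total, the joint share was 2.68%.

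Among the miR-23 genes, Mir23b had 148764 counts in replicate 1 and 177849 in replicate 2, and Mir23a had 76624 and 88578. This corresponds to 27783 and 27406 CPM for Mir23b, against 14310 and 13650 CPM for Mir23a. The genes did not overlap, and each library gave nearly the same ratio. Mir23b exceeded Mir23a by 1.97-fold, with log2 ratios of 0.96 in replicate 1 (95% exact binomial interval 0.94 to 0.97) and 1.01 in replicate 2 (0.99 to 1.02). The difference of 0.98 ± 0.0343 (log2, SD, n = 2) was far larger than the spread between replicates. Mir23b stood at rank 10 of the table and Mir23a at rank 16.

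The miR-27 genes were lower and further apart. Mir27b had 11959 counts in replicate 1 and 14826 in replicate 2, which is 2233 and 2285 CPM. Mir27a had 1192 and 1541 counts, or 223 and 237 CPM. Every value of Mir27b lay above both values of Mir27a, and the ratio was 9.82-fold. The log2 ratio was 3.33 in replicate 1 (interval 3.24 to 3.41) and 3.27 in replicate 2 (3.19 to 3.34), a mean of 3.30 ± 0.0427 (SD, n = 2). Mir27b ranked 62 and Mir27a 153.

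The miR-24 genes ran the other way. Mir24-1 had 350 counts in replicate 1 and 440 in replicate 2 (65.4 and 67.8 CPM), and Mir24-2 had 1283 and 1322 counts (240 and 204 CPM). Mir24-1 lay below Mir24-2 in both libraries. The log2 ratio of Mir24-1 over Mir24-2 was -1.87 in replicate 1 (interval -2.05 to -1.70) and -1.59 in replicate 2 (-1.75 to -1.43), a mean of -1.73 ± 0.203 (SD, n = 2). With the reads of both strands of the Mir3074-1 row taken for Mir24-1, the mean log2 ratio was -0.39. Since miR-24-3p is identical in both hairpins, these counts are of reads that could still be placed at 1 locus. How much of miR-24-3p stands among the reads mapped to several places was not tested, so neither the level of miR-24 nor the share of each locus in it can be read from these values.

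**Figure D2:**
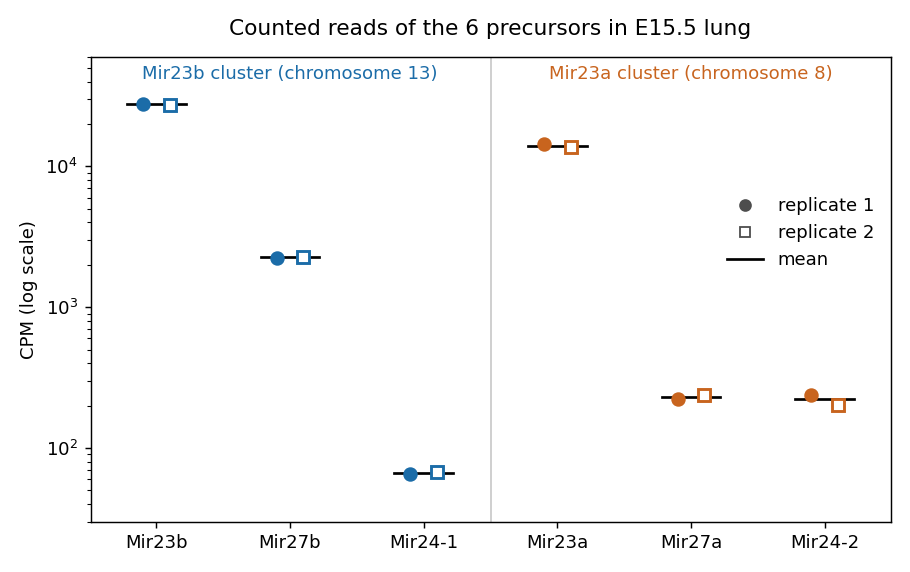
CPM (log scale) of the 3 precursors of the Mir23b cluster (blue, left) and the 3 of the Mir23a cluster (orange, right), with replicate 1 as filled circles, replicate 2 as open squares and the mean as a line. The miR-23 genes are the highest of each cluster, at 27594 and 13980 CPM on average, and Mir24-1 is the lowest of the 6 at 66.6 CPM.

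In counted reads the 3 twin pairs therefore differed in ratio as well as in level. Each ratio covers only reads that could be placed at a single locus. Among the hairpins searched, miR-23a-3p and the miR-27 3p products were unique only from their first 19 bases on. For the miR-24 pair the limit holds at full length, as miR-24-3p is identical in both hairpins. With both strands of the Mir3074-1 row, the mean log2 ratio of that pair was -0.39. The log2 ratio of Mir27b over Mir27a exceeded that of Mir23b over Mir23a by 2.37 in replicate 1 and 2.26 in replicate 2 (2.32 ± 0.077, SD, n = 2). The log2 ratio of Mir23b over Mir23a exceeded that of Mir24-1 over Mir24-2 by 2.83 and 2.59 (2.71 ± 0.169). These differences were larger than the spread between replicates. An exact 2-sided permutation test over the libraries gave p = 0.33 for each of the 3 twin ratios and each of the differences between them, the smallest p that 2 values against 2 allow. Paired by library, exact sign flips, chosen after seeing the data, gave p = 0.50 for each, also the smallest possible with 2 libraries, so neither test could pass a threshold of 0.05. Intervals here cover counting error only, as reads carry no molecular identifiers, and the relative capture of different sequences was not measured.

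**Figure D3:**
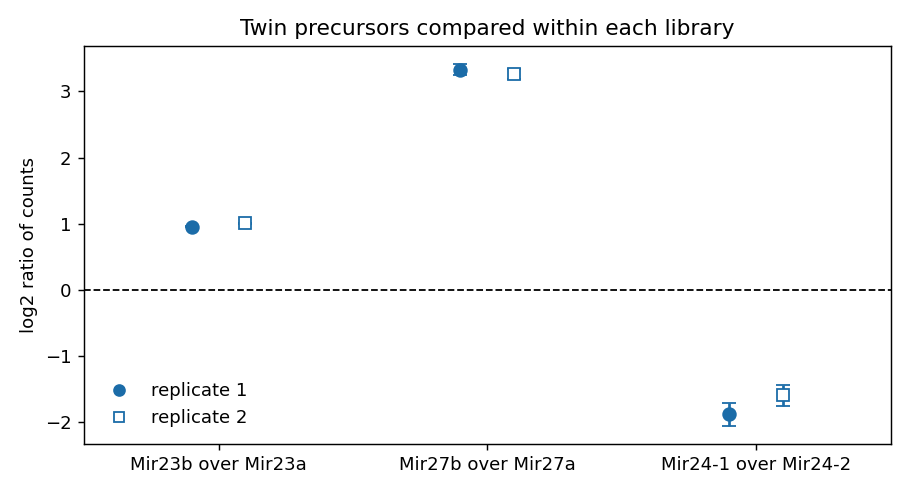
Log2 ratio of counts between twin precursors within each library (replicate 1 filled circles, replicate 2 open squares), with 95% exact binomial intervals as bars. The ratios lie near 1 for Mir23b over Mir23a, above 3 for Mir27b over Mir27a, and below 0 for Mir24-1 over Mir24-2, where the dashed line marks equal counts.

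Within each cluster the counted reads were concentrated in the first hairpin. Reads of miR-24-3p, the same in Mir24-1 and Mir24-2, may instead stand among those mapped to several places, which was not tested. The shares and the gaps to the miR-24 genes therefore describe counted reads and not levels of miR-24. Mir23b made up 92.4% of the counts of its cluster in replicate 1 and 92.1% in replicate 2, and Mir23a made up 96.9% of its own in both. Mir23b exceeded Mir27b by 12.2-fold (log2 3.61 ± 0.0371) and Mir23a exceeded Mir27a by 60.8-fold (log2 5.93 ± 0.114, SD, n = 2 for each). Mir23a exceeded Mir24-2 by 63.3-fold (log2 5.98 ± 0.117). The widest gap, 414-fold (log2 8.70 ± 0.0513), was that of Mir23b over Mir24-1, and it was 7.35 in log2 with both strands of the Mir3074-1 row. Each of these 4 ratios had the same direction in both libraries and the same exact permutation p of 0.33, or 0.50 by exact sign flips.

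By counted reads, the order of the 6 genes was Mir23b, Mir23a, Mir27b, Mir27a, Mir24-2 and Mir24-1. Mir27a (230 ± 10.5 CPM) and Mir24-2 (222 ± 25.4 CPM, SD, n = 2) could not be told apart, as their replicates overlapped and their means differed by 8.38 CPM. The 4 other neighbours in the order did not overlap.

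Replicates of the members were close. Mir23b differed by a log2 ratio of replicate 2 over replicate 1 of -0.02 (interval -0.03 to -0.01), Mir27b by 0.03 (-0.002 to 0.07) and Mir27a by 0.09 (-0.02 to 0.20). Mir24-1 differed by 0.05 (-0.15 to 0.26). Mir23a was lower in replicate 2, at -0.07 (-0.08 to -0.05), and Mir24-2 moved most, at -0.23 (-0.35 to -0.12). No member passed 1.5-fold between the libraries, where 9.8% of the 357 genes with at least 10 counts in both did so. The counting interval left out a ratio of 1 for 3 of the 6 members, and for 44.8% of those 357 genes. The median gene among the 357 differed by an absolute log2 of 0.14.

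Genes of nearest level were named as the 2 above and the 2 below in mean CPM. Mir23b stood below Mir10a (32640 ± 884 CPM), of the HOX clusters, and Mir26b (28173 ± 1080 CPM), and above Mir17 (25936 ± 1310 CPM), of a cluster linked to proliferating progenitors, and Mir130a (25319 ± 2953 CPM). Of these, Mir26b and Mir130a overlapped with Mir23b between replicates. Mir23a lay between Mir99b (18388 ± 203 CPM) and Mir30e (15951 ± 1565 CPM) above and the epithelial Mir429 (13376 ± 314 CPM) and Mir351 (12205 ± 1741 CPM) below, without overlap. Mir27b lay below Mir361 (2405 ± 12.7 CPM) and Mir455 (2397 ± 139 CPM) and above Mir298 (2200 ± 62.5 CPM) and Mir22 (2169 ± 148 CPM), and overlapped with the last 2 (SD, n = 2 throughout).

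**Figure D4:**
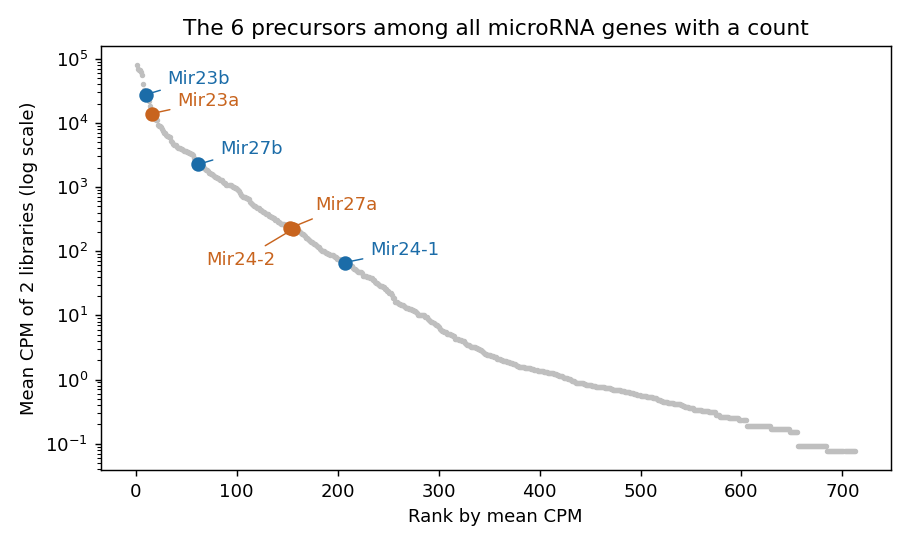
Mean CPM over 2 libraries (log scale) against rank for all microRNA genes with a count (grey), with the members of the Mir23b cluster in blue and of the Mir23a cluster in orange. The 6 genes run from rank 10 (Mir23b) to rank 207 (Mir24-1). The rank of Mir24-1 leaves out the annotated strand of the Mir3074-1 row, which was higher at 102 CPM.

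Vascular microRNAs and those of other compartments were read beside the clusters. Of the 6 genes listed for endothelium and vessels, 5 were in the table and all 5 reached 10 counts in both libraries, together at 7.36% of the counts in replicate 1 and 7.17% in replicate 2. Mir126a, the endothelial microRNA in Egfl7, led at 68906 and 67001 CPM, then Mir296 at 3889 and 3851 CPM and Mir210, which hypoxia induces, at 374 and 402 CPM. Mir126a was thus above both miR-23 genes. The smooth muscle and mesenchyme list had 6 of 7 tabulated genes at that level (8.37% and 8.93%), led by Mir143, Mir214 and Mir145a, and the epithelial list, the miR-200 family, 5 of 5 (3.19% and 3.15%), led by Mir429, Mir200c and Mir200b. Markers of blood (5 of 5 tabulated genes, 0.153% and 0.160%, led by Mir223, Mir451a and Mir144), striated muscle (4 of 7, 0.0928% and 0.124%, led by Mir208b, Mir208a and Mir206) and liver (Mir122, 0.047% and 0.0278%) took little. Between replicates 1 and 2, Mir208b (269 and 780 CPM) and Mir206 (54.2 and 156 CPM) were higher in the second. Mir208a (573 and 255 CPM) and Mir122 (470 and 278 CPM) were lower there. Mir133a-1, Mir133a-2 and Mir1a-1, hairpins with further copies, were at 0 counts, which does not show absence for such copies. Which cells of the whole lung gave the reads of the clusters was not measured, and in whole tissue fewer cells of a type and less RNA per cell cannot be told apart.

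Other near-identical pairs allow the Mir27 ratio to be placed. Among RefSeq mature entries, products with the same bases 2 to 8 and 1 differing base were found for 6 pairs of tabulated genes with at least 10 counts in both libraries and no identical copy. Mir27b over Mir27a was one of them. Mir23b over Mir23a (1.97-fold) is not among the pairs because the mature entries used here held none for miR-23b-3p, which was therefore not compared. In the 5 others the higher gene exceeded the lower by a median of 10.8-fold, from 1.39-fold (Mir30e over Mir30a) to 40.2-fold (Mir17 over Mir106a). The 3 pairs with the most counts were Mir99a over Mir100 (10.8-fold, log2 3.43 ± 0.0475), Mir10a over Mir10b (30.3-fold, log2 4.92 ± 0.213) and Mir30e over Mir30a (log2 0.48 ± 0.031, SD, n = 2 for each). The 9.82-fold of the Mir27 pair lay inside this range and below 3 of the 5 pairs. In these pairs the gene on top was the higher one, so their direction is fixed by the choice.

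**Figure D5:**
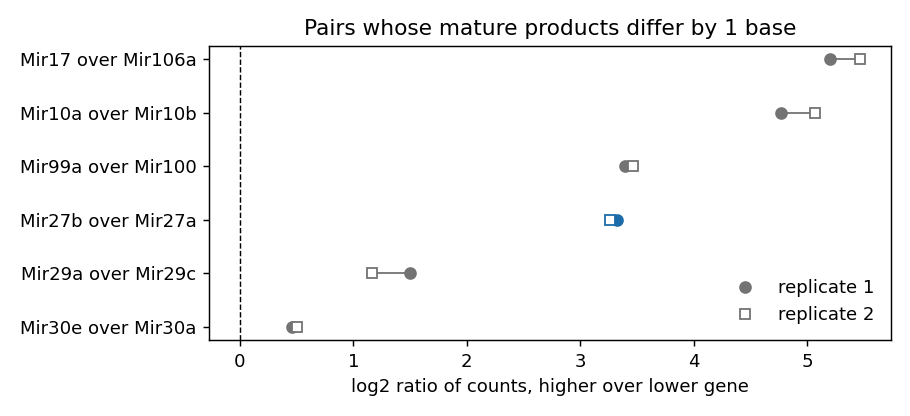
Log2 ratio of counts of the higher over the lower gene in 6 pairs whose mature products differ by 1 base, with replicate 1 as filled circles and replicate 2 as open squares. Mir27b over Mir27a (blue, 3.30 on average) lies inside the range of the 5 other pairs (grey), from 0.48 to 5.33.

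Genes of the table were also sorted by how their mature sequences match those of other precursors. Of 87 genes with a product identical to that of another precursor, Mir24-2 and Mir3074-1 among them, 44 (50.6%) reached 10 counts in both libraries, at a median of 53.7 CPM. Of 23 genes with a product 1 base away from another, Mir27a and Mir27b among them, 20 (87.0%) did, at a median of 1337 CPM. Of the 806 others with a listed product, 260 (32.3%) did, at a median of 142.8 CPM. Mir23a and Mir23b count among these 806 because miR-23b-3p had no mature entry to compare, so their class says nothing of how alike the twins are. Mir24-2 at 222 CPM stood above the median of the identical class, as did Mir3074-1 on its own strand at 102 CPM. Mir24-1, at 66.6 CPM on the strand opposite Mir3074-1, has no row and is not in that class. Mir27b stood above and Mir27a below the median of the 1-base class. These classes are described without a test, as the genes share libraries and families.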

How the data were processed

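The authors deposited 1 table of raw counts per library, derived from alignments to mm10 with annotation M4, per the readme files. Which aligner and counter made them is not given in the sources used here. Columns 2, 3 and 4 were taken as counts without regard to strand, on the annotated strand and on the opposite strand, as column 2 equals the sum of the other two in every row. The 4 summary lines were kept out of totals. CPM used the total of the annotated-strand column. At 3 counts, the limit that a count of 0 allows was 0.560 CPM in replicate 1 and 0.462 CPM in replicate 2.

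Names came from GENCODE M21 (GRCm38), with 1894 of 1973 identifiers matched without their version, and sequences from RefSeq on GRCm38.p6. Means and SDs are over 2 libraries. Ratios carry exact binomial (Clopper-Pearson) 95% intervals and an exact 2-sided permutation test. No edgeR test between groups was possible with 1 group. The libraries were counted as 2 samples because each came from its own pool of embryos. They differed by more than sampling noise (chi-square per degree of freedom 63.8), which does not by itself show that the pools are independent. Nothing in the labels shows more than the pooling to separate them. The SDs cover all that differed between the libraries, which cannot be split into parts. The p-values stand at the smallest value that 2 libraries allow and do not measure that spread. Members, lists and named genes (members, neighbours in level, the highest of each list, the 1-base pairs with the most counts) were chosen with earlier results of these data known. The gene Mir24-1 had no row of its own. Shortest unique lengths were searched among hairpins in place of a genome. Alternatives were each replicate alone, counts of both strands together, other totals, other minimum counts, exact sign flips within libraries (added after seeing the data), and edgeR 4.0.16 TMM or DESeq2 1.42.0 size factors. Python 3.11.15, scipy 1.17.1 and R 4.3.3 were used.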

Additional observations from a re-analysis of the deposited data

Results flagged for a closer look

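The annotated strand of Mir3074-1, which lies opposite Mir24-1 and entered no comparison above, held 532 counts in replicate 1 and 684 in replicate 2 (99.4 and 105 CPM). This exceeds the 3 counts that a count of 0 allows. It was 1.52-fold and 1.55-fold the count on the opposite strand, where Mir24-1 lies, so 60.3% and 60.9% of the row's reads came from the Mir3074-1 strand. The strand opposite Mir24-2, where Mir3074-2 lies, held 0 and 2 counts. The product miR-3074-5p is the same 22 bases in Mir3074-1 and Mir3074-2, so its reads have an exact place in each cluster. How many of them stand among the reads mapped to several places was not tested. These counts therefore do not give the level of either strand. The other 4 members had 0 counts on their opposite strand in both libraries. In the whole table, 16 of 1973 rows had at least 10 opposite-strand counts in both libraries, and 7 of these, Mir3074-1 among them, had at least 10 on each strand.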

How the results depend on the processing

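The 7 ratios between single genes kept their direction under reads without regard to strand and with either replicate left out. Without 1 replicate, the log2 ratio ran from 0.96 to 1.01 for Mir23b over Mir23a, 3.27 to 3.33 for Mir27b over Mir27a, -1.87 to -1.59 for Mir24-1 over Mir24-2, 5.85 to 6.01 for Mir23a over Mir27a, 3.58 to 3.64 for Mir23b over Mir27b, 8.66 to 8.73 for Mir23b over Mir24-1, 5.90 to 6.07 for Mir23a over Mir24-2, and 1.03 to 1.08 for the summed clusters. The share of all counts in the 6 members ran from 4.38% to 4.49% without 1 replicate, and was 4.32% with reads of both strands, 2.68% with reads mapped to several places in the total and 4.82% without Mir143 in the total. The count of members detected stayed at 6 with a minimum of 1 or 100 counts and with Mir3074-1 on its own strand. Of 36 alternatives for the level or the replicate ratio of a single member, 13 moved the value by more than its spread or counting interval, 6 of them by adding reads mapped to several places to the total, which lowers all CPM alike. Under TMM or size factors no member passed 1.5-fold between libraries, and Mir23b changed sign under TMM, to a log2 ratio of 0.006. Pairing the genes of a ratio by library (a replicate block) left the log2 values as they were, 0.98, 3.30 and -1.73 for the twins, with p = 0.50 by exact sign flips, the smallest possible. No paired analysis was possible between groups because the libraries form 1 group. Mir24-1, with the fewest counts, had the widest counting interval between libraries.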

Other observations

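Hairpins of the table were also compared by windows of 20 bases, on both strands. Of 112 genes whose hairpin shares a window with a hairpin at another locus, the 6 members' rows among them, 60 (53.6%) reached 10 counts in both libraries, and these 112 held 8.06% of the counts in replicate 1 and 7.87% in replicate 2. Of 757 genes with no shared window, 249 (32.9%) did. In the members, 1 of 55 windows was shared in Mir23b and 1 of 56 in Mir23a, 1 of 54 in Mir27b and 1 of 68 in Mir27a, and 9 of 49 in Mir24-1 and 11 of 88 in Mir24-2.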
